A study of Mus musculus with 20 samples.

Results

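The cytosolic heat shock chaperones described here are 10 genes taken by symbol from the messenger RNA table, which holds 21949 genes, with the FPKM of each gene's transcripts summed. FPKM are counts of sequenced fragments scaled to the length of the transcript and to the number of fragments mapped in the library. The genes are Hsp90aa1, Hsp90ab1, Hspa8, Hspa1a, Hspa1b, Hspb1, Hspb8, Dnajb1, Hsph1 and Bag3. All 10 were found and all 10 passed the filter on low values, a mean of at least 0.5 FPKM over the 20 libraries, as did 13722 genes in all. RNA came from frozen cerebral cortex of (C57BL/6 x C3H)F1 mice aged 3 or 10 months. The TG groups, TG03M and TG10M, carried Tg(Prnp-MAPT*P301S)PS19Vle, a transgene for P301S mutant human tau under the Prnp promoter, known as PS19. The WT groups, WT03M and WT10M, were wild type, and each of the 4 groups had 5 libraries. The Prnp promoter is active in several cell types of the brain. Bulk cortex holds all of its cell types, so that fewer cells of a type and less RNA per cell cannot be told apart. The labels do not say that replicates were separate animals, and p-values therefore measure the spread between these samples, which may in part be technical.

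Chaperones of the cytosol bind unfolded stretches of other proteins and use cycles of binding and release to help them fold, stay soluble or reach the proteasome. HSP90 and HSP70 proteins are driven by ATP, J proteins deliver clients to HSP70, HSP110 and BAG proteins exchange its nucleotide, and small heat shock proteins hold unfolded proteins without ATP. Heat, oxidants and unfolded protein activate the transcription factor HSF1, which binds heat shock elements, repeats of the unit GAA and its inverse TTC, in the promoters of the inducible members. Tau is a known client of HSP70 and HSP90, and both can steer it to refolding or to degradation.

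The promoters of the stress-inducible members are shown because these members are known targets of HSF1 and varied together across libraries. The 250 bases before the annotated start were read from RefSeq for the 7 members that the table of promoters holds, in build GRCm38.p6, and searched on either strand for inverted pairs of units, GAANNTTC and TTCNNGAA. Each of these motifs reads the same on either strand, and the forms with 3 units, GAANNTTCNNGAA and TTCNNGAANNTTC, contain them. A pair was found for 4 of the 7 members, Hspa1a, Hspa1b, Hspb1 and Hsph1. Counted by promoter, as some members have several annotated starts, it was in 5 of 9 (55.6%), against 12.8% of all 32851 promoters of the same length. The 3-unit forms were found in 0 of the 7 members and in 0.466% of all promoters. For Hspa1a (chr17:34972157-34972406, minus strand), Hspa1b (chr17:34959239-34959488, minus strand) and Hspb1 (chr5:135887669-135887918, plus strand) the whole window is given 5′ to 3′, ending at the base before the start. For Hsph1 30 bases are given (chr5:149636351-149636380, minus strand), and capitals mark the units of each pair.
Hspa1a: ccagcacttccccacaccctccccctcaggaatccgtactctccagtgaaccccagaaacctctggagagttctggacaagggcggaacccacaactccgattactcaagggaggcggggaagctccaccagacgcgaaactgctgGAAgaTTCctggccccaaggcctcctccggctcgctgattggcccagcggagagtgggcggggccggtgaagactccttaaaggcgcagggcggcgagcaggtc
Hspa1b: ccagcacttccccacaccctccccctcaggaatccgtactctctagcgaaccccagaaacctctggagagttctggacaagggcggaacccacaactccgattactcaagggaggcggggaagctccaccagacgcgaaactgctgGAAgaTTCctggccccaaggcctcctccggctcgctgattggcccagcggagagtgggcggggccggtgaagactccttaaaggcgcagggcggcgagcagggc
Hspb1: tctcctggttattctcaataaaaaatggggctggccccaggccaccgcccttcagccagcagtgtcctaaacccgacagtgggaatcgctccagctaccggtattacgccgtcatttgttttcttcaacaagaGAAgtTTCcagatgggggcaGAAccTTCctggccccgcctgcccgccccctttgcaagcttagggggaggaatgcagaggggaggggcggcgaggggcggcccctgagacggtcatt
Hsph1: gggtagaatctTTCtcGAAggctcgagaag
The windows of Hspa1a and Hspa1b differed at 3 of 250 bases and held the pair at the same place, from 104 to 97 bases before the start. Hspb1 held 2 pairs, beginning 117 and 97 bases before the start. The pair of Hsph1 began 54 or 33 bases before the start, depending on which of its annotated starts is used. No pair was in the windows of Bag3, Hspb8 and Dnajb1, which says only that these letters are not in these windows. A match is a description of the sequence, and no binding was measured.

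**Figure D1:**
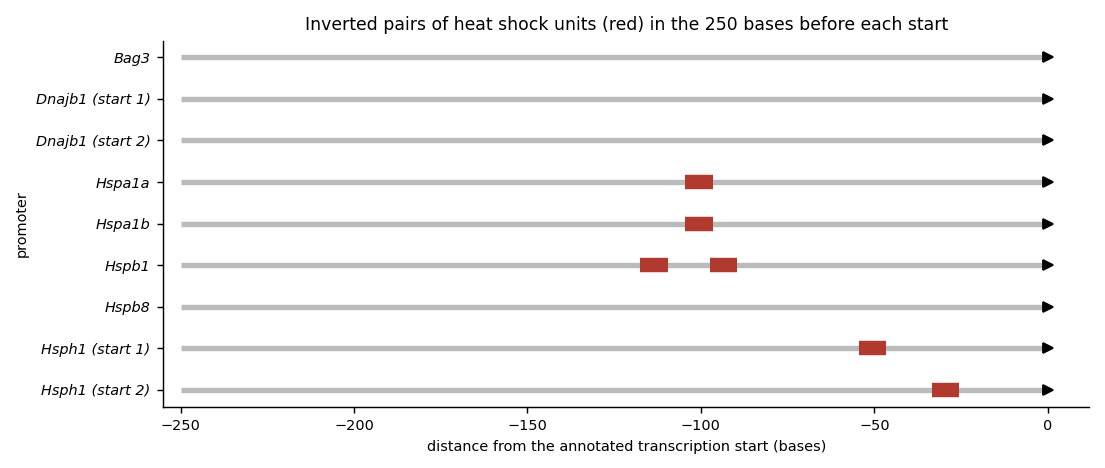
Inverted pairs of heat shock units (red blocks) in the 250 bases before each annotated start (arrow) of the 7 members with a promoter in the RefSeq table. The horizontal axis is the distance from the start in bases, and the rows are promoters, with 2 starts for Dnajb1 and Hsph1. The pairs of Hspa1a and Hspa1b lie at the same distance, and Hspb1 has 2.

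The levels of the members spanned a wide range. Hspa8, the constitutive HSP70 of the cytosol, was the highest, with a median of 889 FPKM over the 20 libraries, and its mean ranked 32 among the genes. Hsp90aa1 (563 FPKM) and Hsp90ab1 (501 FPKM), the alpha and beta forms of cytosolic HSP90, came next, and the ranges of these genes over libraries overlapped each other. Hsph1, an HSP110, had a median of 69.4 FPKM and Dnajb1, a J protein of HSP70, 34.4 FPKM. The small heat shock proteins Hspb8 (8.43 FPKM) and Hspb1 (7.63 FPKM) overlapped, as did the inducible HSP70 genes Hspa1b (4.76 FPKM) and Hspa1a (3.73 FPKM). Bag3, the BAG protein that links HSP70 to small heat shock proteins and to autophagy, was the lowest, with a median of 1.44 FPKM. The highest library exceeded the lowest by 49.6 times for Hsp90aa1, by 9.40 times for Hspa1b, by 8.77 times for Hspb1 and by 1.83 to 3.82 times for the 7 others.

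The libraries differed in ways that cross the groups, and this touches several members. Depth, estimated from the steps between low FPKM values, was 22.8 to 30.4 M fragments per library. The first principal component, with 23.9% of the variance, parted 3 libraries (26.2 to 30.9) from the 17 others (-12.1 to 2.52), namely replicate 5 of WT10M and replicates 1 and 5 of TG10M. These 3 libraries are called the set apart below, and group differences of the HSP90 genes are also given without them. The summed levels of markers of neurons, astrocytes, oligodendrocytes, microglia, endothelium and mural cells were above 0 in all libraries. So was that of choroid plexus, which ranged from 6.74 to 1030 FPKM. The highest choroid plexus sums were those of TG03M replicates 4 (1030 FPKM) and 1 (834 FPKM). The sum of 5 blood markers was 519 to 2081 FPKM in the set apart, highest in TG10M replicate 5, and 264 to 667 FPKM in the 17 others. No batch, date or sex is named in the labels.

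**Figure D2:**
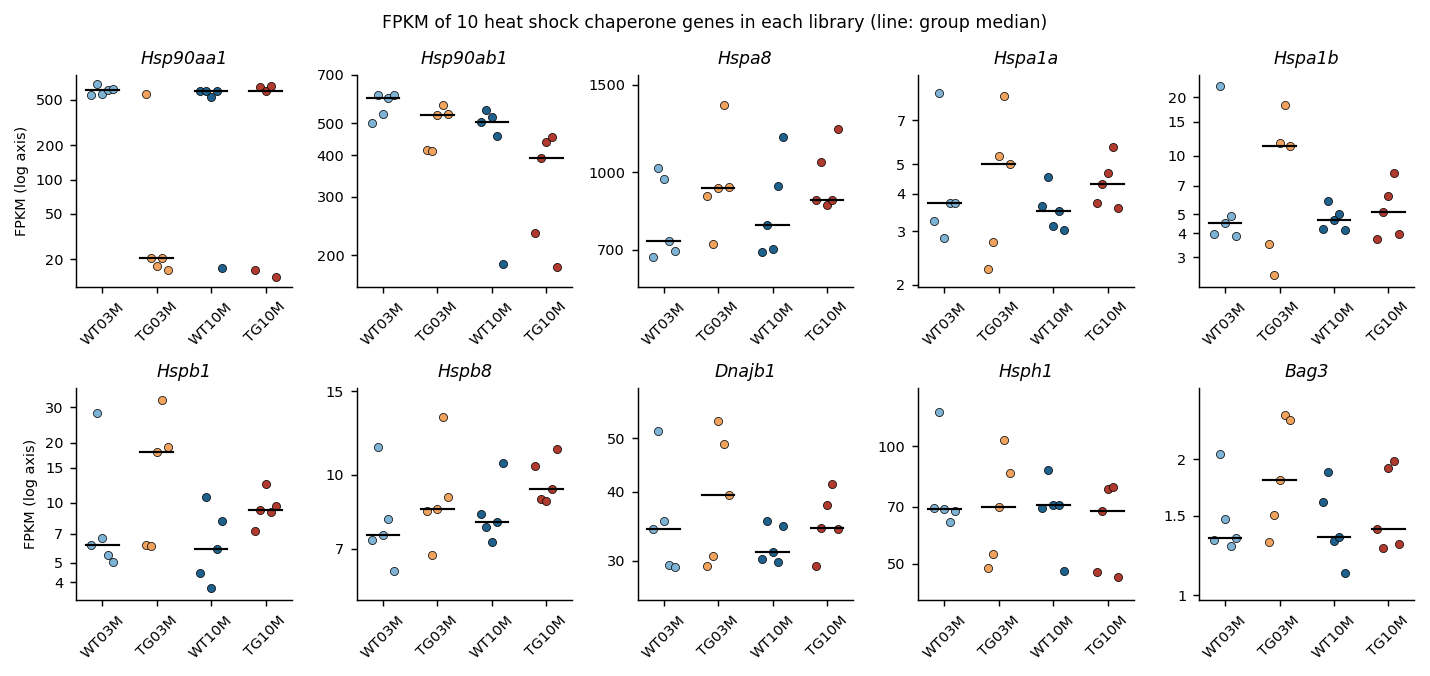
FPKM of each member in each library (points, in order of replicate number within a group) on log axes that differ between panels, with the group median as a line. Hsp90aa1 takes 2 far-apart levels, and the values of every other member overlap between the groups.

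No member passed the test in any comparison. Differences are of log2(FPKM + 0.5), which understates the change of low genes, and genes were called where the p of limma, adjusted by Benjamini-Hochberg over 13722 genes, was under 0.05. At 10 months, 0 of 10 members were called between TG10M and WT10M, against 0.634% of all genes, and 0 had an unadjusted p under 0.05, against 14.1% of all genes. At 3 months, 0 of 10 were called between TG03M and WT03M, against 0.299% of all genes, and 1, Hsp90aa1, had an unadjusted p under 0.05, against 10.6%. Between WT10M and WT03M 0 of 10 were called, against 0.0656%, and 0 had an unadjusted p under 0.05, against 6.72%. Between TG10M and TG03M 0 of 10 were called, against 0.845%, and 1, Hsp90ab1, had an unadjusted p under 0.05, against 16.1%. The interaction, the genotype difference at 10 months minus that at 3 months, called 0 of 10, against 0.0364% of all genes, and 0 had an unadjusted p under 0.05, against 5.04%. With shares of called genes this small, a count of 0 among 10 members is near the background.

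The values of every member overlapped between the groups in all 4 comparisons. Groups that did not overlap were found for 2.38% of all genes between TG10M and WT10M, 4.48% between TG03M and WT03M, 1.65% between WT10M and WT03M and 3.42% between TG10M and TG03M. The median difference of the 10 members was 0.13 between the genotypes at 10 months and 0.16 at 3 months, with 7 members positive and 3 negative at each age. Without the set apart the split at 10 months was 9 positive and 1 negative, with a median of 0.23. Without TG03M replicate 4 the split at 3 months was 5 and 5, with a median of -0.0071. The median was -0.18 with age in wild type, with 8 members negative. That count rests on WT03M replicate 2, without which 2 members were negative, the HSP90 genes, and the median was 0.06. With age in the transgenic mice the median was -0.15, with 6 negative, and without the set apart -0.04, also with 6 negative. The comparisons share groups, so these medians are not independent of each other. Over all genes tested the medians of the 5 contrasts lay between -0.00347 and 0.00164.

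**Figure D3:**
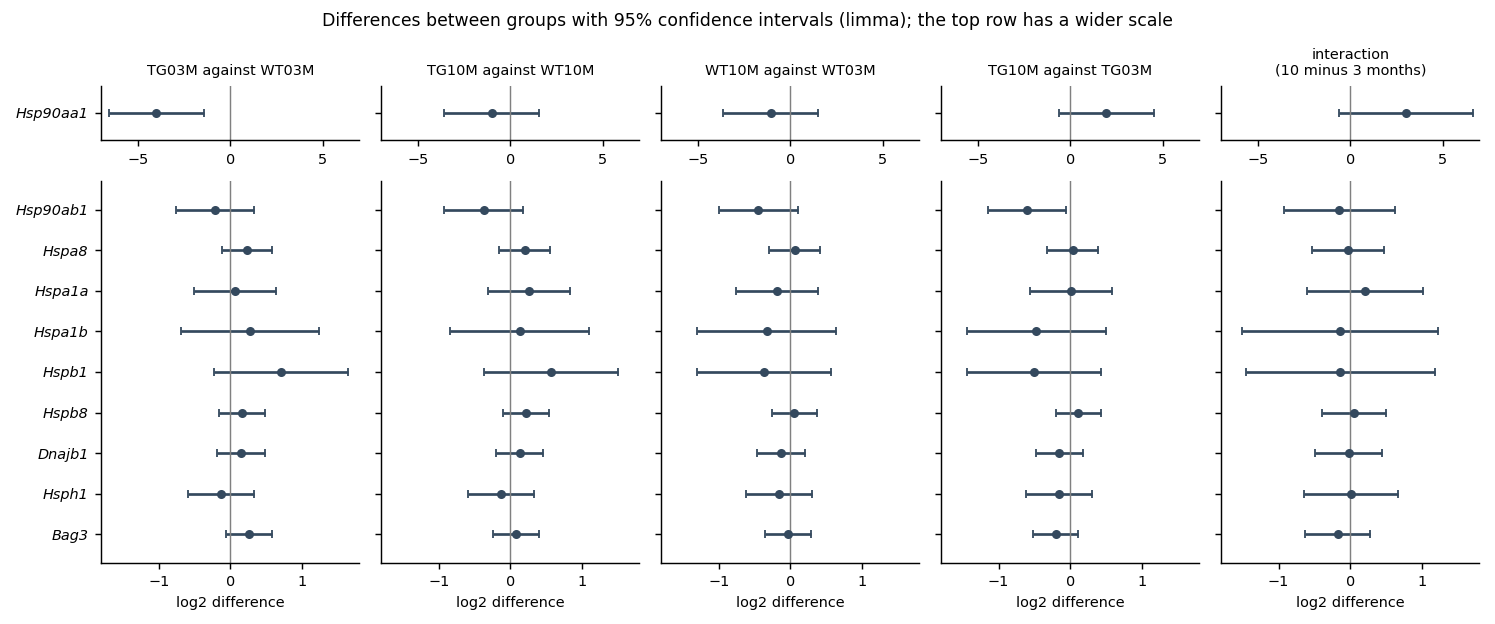
Log2 differences (points) of the 10 members in the 4 comparisons and the interaction, with 95% confidence intervals from limma. Hsp90aa1 is drawn on a wider scale in the top row. The intervals include 0 except for Hsp90aa1 between TG03M and WT03M and Hsp90ab1 between TG10M and TG03M, and neither passed after adjustment.

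Hsp90aa1 (ENSMUSG00000021270; GRCm38 chromosome 12, 110690605 to 110702728, minus strand) encodes the form of HSP90 that stress can induce. Its level was 547, 687, 566, 610.2 and 625 FPKM in WT03M replicates 1 to 5 and 602, 596, 532, 596 and 16.6 FPKM in those of WT10M. It was 560.3, 20.5, 17.3, 20.3 and 16.2 FPKM in TG03M and 16.2, 654, 596, 657 and 13.9 FPKM in TG10M. The gene thus had 1 of 2 levels, 13.9 to 20.5 FPKM in 7 libraries and 532 to 687 FPKM in 13, with no library between them. The low level was that of TG03M replicates 2 to 5 and of the 3 libraries of the set apart, and no WT03M library had it.

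Between TG03M and WT03M the mean of Hsp90aa1 on the log2 scale was lower by 4.02 (difference -4.02, SE 1.23, 95% interval -6.60 to -1.44, adjusted p = 0.213, limma), with 4 of 5 TG03M libraries low. An exact permutation test over the 5 against 5 libraries gave p = 0.0159, two-sided, and 0.0635 after Benjamini-Hochberg adjustment over the 4 comparisons. The smallest p this design allows is 0.00794. The gene was singled out because its far-apart levels were known from earlier results of these data. The adjustment over 4 comparisons does not cover that choice. The p also depends on where TG03M replicate 1, at the high level, falls among the WT03M values. The limma fit calls Hsp90aa1 when only the compared groups are fitted (adjusted p = 0.0406), when the set apart is left out (adjusted p = 0.00316) and when TG03M replicate 1, the TG03M library at the high level, is left out (-4.997, adjusted p = 0.0497). These fits called 221, 473 and 108 of 13722 genes in this comparison, against 41 in the main fit.

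The other comparisons of Hsp90aa1 turn on which libraries are in the set apart. Between TG10M and WT10M its difference was -0.998 (95% interval -3.58 to 1.58, adjusted p = 0.738, limma; exact permutation p = 0.817), with 2 low libraries against 1. Without the set apart it was 0.13 (exact permutation p = 0.171, n = 3 against 4), and all 7 remaining libraries were at the high level. With age in wild type the difference was -1.08 (exact permutation p = 0.254), and -0.06 without the set apart (exact permutation p = 0.508). With age in the transgenic mice it was 1.95 (95% interval -0.63 to 4.52, adjusted p = 0.429, limma; exact permutation p = 0.444). Without the set apart it was 4.09, which limma called (adjusted p = 0.0288), in a fit that called 73 of 13722 genes. The exact permutation test then gave p = 0.0357 and 0.0714 adjusted over the 4 comparisons, with n = 3 against 5. All 3 TG10M libraries left, at 596 to 657 FPKM, lay above the highest TG03M library, at 560.3 FPKM. With groups of these sizes the test, which doubles the smaller tail, cannot give a smaller unadjusted p.

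The 2 levels of Hsp90aa1 were carried by its long transcripts. Hsp90aa1-201 (2852 bases, 11 exons) had 1.67 to 4.43 FPKM in the 7 low libraries and 396 to 516 FPKM in the 13 others, a ratio of medians of 188. Hsp90aa1-202 (3281 bases, 11 exons), which shares 2752 bases with it, had 5.26 to 9.83 and 122 to 159 FPKM, a ratio of medians of 21.6. The short transcripts differed less. Hsp90aa1-203 (427 bases, 3 exons) had 2.40 to 7.34 FPKM in the 7 and 5.44 to 14.7 FPKM in the 13, and Hsp90aa1-207 (481 bases, 3 exons) had 2.16 to 4.13 and 4.004 to 8.60 FPKM, with ratios of medians of 2.09 and 2.16. Of the exon bases of these short transcripts, 74.5% and 64.4% also lie in Hsp90aa1-201. The fifth transcript, Hsp90aa1-208, was listed at no more than 1.69e-08 FPKM in any library. Of the 100-base windows of Hsp90aa1-201, 53.2% occur unchanged in other annotated genes, most of them in the gene model Gm12346, so the authors' counting could split reads between these genes.

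**Figure D4:**
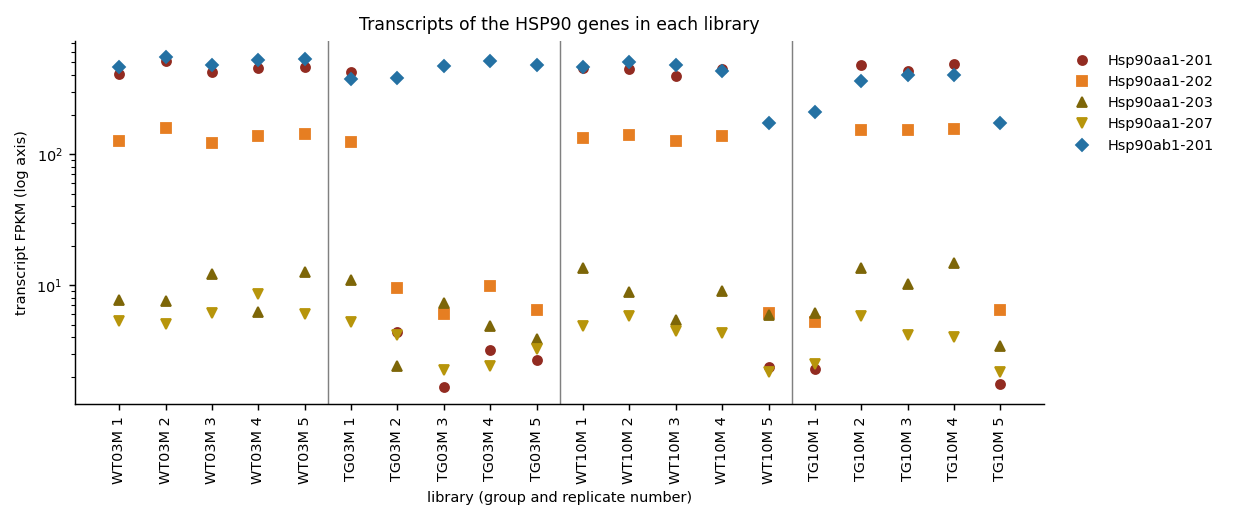
FPKM (log axis) of 4 transcripts of Hsp90aa1 and the main transcript of Hsp90ab1 in each library, by group and replicate number. Hsp90aa1-201 and Hsp90aa1-202 are low together in 7 libraries, Hsp90aa1-203 and Hsp90aa1-207 differ less, and Hsp90ab1-201 is low in WT10M replicate 5 and TG10M replicates 1 and 5.

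Hsp90aa1 was 1 of 14 tested genes whose values in the 7 libraries lay below those in the 13 others by a gap of over 1 on the log2 scale, and 0 genes lay above by such a gap. Since the 7 libraries were picked by Hsp90aa1, this is a description. The widest gap was that of Rrp1, with 1.32 to 3.02 FPKM in the 7 and 144 to 167 FPKM in the 13, followed by Rpl12, a protein of the large ribosomal subunit, with 2.85 to 5.33 and 170 to 199 FPKM (169.6 the lowest). Rrp12, Rrp15 and Rrp36 followed Hsp90aa1, with at most 0.335, 0.406 and 0.516 FPKM in the 7 and at least 10.6, 7.74 and 7.81 FPKM in the 13. Rrp stands for ribosomal RNA processing, and all 8 genes of the table with a symbol that starts so are among the 14, a count made after their values were seen. The 5 others are Exosc5 and Dis3, which belong to the RNA exosome, Cmtr1, a cap methyltransferase, Rrnad1 and Rpl12. In the other direction the widest gap, 0.10 on the log2 scale, was that of Resp18, with 111 to 166 FPKM in the 7 (110.5 the lowest) and 68.4 to 103 FPKM in the 13. What sets these libraries apart was not tested. TG03M replicates 2 to 5, with low Hsp90aa1, scored -1.87 to 2.34 on the leading component, among the 17 libraries outside the set apart.

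Hsp90ab1 (ENSMUSG00000023944; chromosome 17, 45567775 to 45573271, minus strand) encodes the constitutive form of HSP90. It had 499, 607, 534, 595 and 609 FPKM in WT03M and 503, 549, 523, 458 and 188 FPKM in WT10M, in order of replicate number. In TG03M it had 415, 413, 530.3, 566 and 533 FPKM, and in TG10M 234, 394, 439.8, 456 and 185 FPKM. The 3 lowest values, 185 to 234 FPKM, were those of the set apart, and the 17 others had 394 to 609 FPKM. TG03M replicates 2 to 5, which were low in Hsp90aa1, had 413 to 566 FPKM of Hsp90ab1, within the range of the other libraries.

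Hsp90ab1 differed by -0.60 between TG10M and TG03M (SE 0.26, 95% interval -1.15 to -0.05, adjusted p = 0.271, limma), and by -0.18 without the set apart (adjusted p = 0.606). Between TG10M and WT10M it differed by -0.37 (95% interval -0.92 to 0.17, adjusted p = 0.519) and by -0.24 without the set apart (adjusted p = 0.291). Leaving out WT10M replicate 5 alone, which keeps the low TG10M libraries, gave -0.66 and a call (adjusted p = 0.0426), in a fit that called 1600 of 13722 genes. At 3 months it was -0.22 (95% interval -0.77 to 0.33, adjusted p = 0.810), and with age in wild type -0.45 (95% interval -0.99 to 0.10, adjusted p = 0.833). In all 4 comparisons the estimate was negative with the set apart and without it. The set apart holds no 3-month library, so the estimate at 3 months could not change. The comparisons also share groups.

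In the 13 libraries with high Hsp90aa1, that gene made up 50.4 to 62.4% of the summed FPKM of the HSP90 pair, and in the 7 others 2.95 to 8.10%. The sum was 198 to 250 FPKM (249.9 the highest) in the set apart and 433 to 586 FPKM in TG03M replicates 2 to 5, while in the 13 others it was 975 to 1293 FPKM. Hsp90ab1-201, of 2520 bases, made up 90.3% of the gene's FPKM. The coding sequences of the pair are 76.3% identical, and none of the 100-base windows of Hsp90ab1-201 occurs in another annotated gene. The genes most like Hsp90ab1 over the 20 libraries after subtracting group means were Ddx21, Anp32e and Skiv2l2 (Pearson r of 0.98 each). Within the 17 libraries outside the set apart r was 0.93, 0.93 and 0.92. The group means subtracted there still included the set apart, so these values cannot show how close the likeness is without it.

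Hspa8 (ENSMUSG00000015656; chromosome 9, 40800984 to 40810087, plus strand) encodes HSC70, which also uncoats clathrin vesicles and delivers proteins to lysosomes. It had 678, 1022, 972, 729.5 and 696 FPKM in WT03M and 694, 784, 703, 940.5 and 1179.6 FPKM in WT10M. The TG03M libraries had 895, 720.2, 931, 1366 and 935 FPKM, and in TG10M 879.9, 1049, 862, 882 and 1220.2 FPKM. The highest libraries were TG03M replicate 4, TG10M replicate 5 and WT10M replicate 5, in 3 different groups. The estimates between genotypes were 0.23 at 3 months (95% interval -0.12 to 0.59) and 0.20 at 10 months (-0.15 to 0.56), with adjusted p of 0.668 and 0.597 (limma). With age they were 0.06 in wild type (-0.29 to 0.42) and 0.03 in transgenic mice (-0.32 to 0.39). Hspa8-201 made up 95.4% of its FPKM, and 63.4% of that transcript's 100-base windows occur in other gene models, mainly Gm15459, so its level is uncertain to that extent. Its most alike genes were Ndufaf1, Aass and Immp1l (r of 0.91, 0.90 and 0.88 over 20 libraries).

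Hspa1a and Hspa1b encode the stress-inducible HSP70. Hspa1a (ENSMUSG00000091971; chromosome 17, 34969190 to 34972156, minus strand) and Hspa1b (ENSMUSG00000090877; chromosome 17, 34956436 to 34959238, minus strand) each have 1 exon. Their coding sequences differ at 8 aligned bases (99.6% identity), and 56.5% and 49.9% of their 100-base windows occur in other genes, mostly in each other. Each value may therefore include reads of the other gene. The gene Gm20481 lies on the other strand over 2225 bases of Hspa1a, and whether the counting used strand is not given in the sources used here.

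Hspa1a had 3.26, 8.63, 2.85, 3.73 and 3.74 FPKM in WT03M and 3.64, 4.55, 3.12, 3.49 and 3.03 FPKM in WT10M. In TG03M it had 2.26, 2.77, 5.33, 8.42 and 5.001 FPKM, and in TG10M 3.72, 4.31, 4.69, 5.70 and 3.58 FPKM. WT03M replicate 2 and TG03M replicate 4 stood above the rest, and TG03M replicates 1 and 2 were the lowest of all 20. Hspa1b had 3.98, 22.8, 4.503, 4.88 and 3.88 FPKM in WT03M and 4.18, 5.87, 4.65, 5.003 and 4.13 FPKM in WT10M. For TG03M the values were 3.49, 2.43, 11.7, 18.4 and 11.2 FPKM, and in TG10M 3.74, 5.11, 6.19, 8.11 and 3.94 FPKM. The same libraries were high, and TG03M held the lowest values of Hspa1b beside 3 of its 4 highest.

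With such spread within TG03M and WT03M, the intervals of Hspa1b were wide. Its difference at 3 months was 0.27 (95% interval -0.70 to 1.24, adjusted p = 0.883, limma) and at 10 months 0.13 (-0.84 to 1.09, adjusted p = 0.921). With age it was -0.33 in wild type (-1.30 to 0.63) and -0.47 in transgenic mice (-1.44 to 0.49). Hspa1a differed by 0.06 at 3 months (-0.51 to 0.64, adjusted p = 0.958) and by 0.26 at 10 months (-0.31 to 0.83, adjusted p = 0.680). With age its estimates were -0.19 in wild type and 0.01 in transgenic mice.

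The genes most like Hspa1a were Hspa4l and Hspa4, which encode HSP110 proteins, and Ahsa1, which stimulates the ATPase of HSP90, with r of 0.96, 0.95 and 0.95. Those most like Hspa1b were Hspa5, the HSP70 of the endoplasmic reticulum, Ahsa1 and Mlec, with r of 0.98 each. Without the 2 libraries farthest from the median, WT03M replicate 2 and TG03M replicate 4, these values were 0.92, 0.91 and 0.89 for Hspa1a and 0.96, 0.96 and 0.95 for Hspa1b. The group means subtracted still included these 2 libraries, so the values cannot show how close the likeness is without them.

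The J protein Dnajb1 (ENSMUSG00000005483; chromosome 8, 83608193 to 83612653, plus strand) works with HSP70 to take aggregates apart. It had 34.3, 51.5, 35.4, 29.5 and 29.3 FPKM in WT03M and 30.3, 35.3, 31.2, 29.8 and 34.7 FPKM in WT10M. The TG03M libraries had 29.3, 30.6, 53.6, 48.7 and 39.4 FPKM, and in TG10M 29.4, 34.4, 37.8, 41.4 and 34.2 FPKM. TG03M replicate 3 was the highest, followed by WT03M replicate 2 and TG03M replicate 4. The estimates were 0.15 at 3 months (95% interval -0.18 to 0.48) and 0.13 at 10 months (-0.20 to 0.46), with adjusted p of 0.775 and 0.739 (limma), and -0.13 and -0.15 with age in wild type and transgenic mice. Lonrf3, Grasp and Fam196a were most like it (r of 0.91, 0.90 and 0.89).

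Hsph1 (ENSMUSG00000029657; chromosome 5, 149614287 to 149636376, minus strand) encodes HSP105, a nucleotide exchange factor of HSP70. It had 69.3, 123, 69.2, 63.8 and 68.3 FPKM in WT03M and 69.4, 87.2, 70.9, 70.6 and 47.8 FPKM in WT10M. In TG03M it had 48.9, 52.9, 69.8, 104 and 85.3 FPKM, and in TG10M 47.7, 68.1, 77.6, 78.8 and 46.4 FPKM. The 3 libraries of the set apart were the lowest of all, at 46.4 to 47.8 FPKM, just under TG03M replicate 1. Its estimates ran from -0.13 at 10 months (95% interval -0.59 to 0.33) to -0.16 with age in either genotype, with adjusted p of 0.723 to 0.925 (limma). The signs of these estimates turned with a few libraries. Without the set apart it had 0.010 at 10 months and 0.11 with age in the transgenic mice, and without WT03M replicate 2 it had 0.035 at 3 months and 0.0070 with age in wild type. Cdkn1a, Zmynd8 and Hsp90b1, the HSP90 of the endoplasmic reticulum, were most like it (r of 0.97 each). Of its 7 transcripts in the table, Hsph1-211 made up 60.7% of its FPKM and Hsph1-201 27.0%.

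Hspb1 (ENSMUSG00000004951; chromosome 5, 135887919 to 135889563, plus strand) encodes the small heat shock protein HSP25, which glia and neurons induce after injury. It had 6.12, 28.1, 6.65, 5.48 and 5.02 FPKM in WT03M and 4.44, 10.7, 3.73, 5.87 and 8.06 FPKM in WT10M. For TG03M the values were 6.14, 6.10, 17.96, 32.7 and 18.9 FPKM, and in TG10M 7.20, 9.17, 12.4, 8.98 and 9.57 FPKM. TG03M replicate 4 and WT03M replicate 2 were again the highest, and TG10M lay in a narrow band within the range of WT10M but for replicate 3.

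Hspb1 had the largest positive estimates between the genotypes of the 10 members, 0.71 at 3 months (SE 0.45, 95% interval -0.23 to 1.64) and 0.57 at 10 months (SE 0.45, -0.36 to 1.51), with adjusted p of 0.607 and 0.569 (limma). Its mean was 10.3 ± 9.98 FPKM in WT03M against 16.4 ± 11.03 FPKM in TG03M, and 6.55 ± 2.83 FPKM in WT10M against 9.47 ± 1.88 FPKM in TG10M (SD, n = 5). The difference of the means was smaller than either SD at 3 months. At 10 months it was slightly larger than the SD of WT10M and larger than that of TG10M. Of the 100-base windows of Hspb1-201, 56.3% occur in the pseudogene Hsp25-ps1. Serpinh1, a collagen chaperone of the endoplasmic reticulum, was most like Hspb1 (r = 0.97), followed by Fam84a and Pdia6 (r of 0.94 each).

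Hspb8 (ENSMUSG00000041548; chromosome 5, 116408491 to 116422864, minus strand) encodes the partner of BAG3 in chaperone-assisted autophagy. It had 7.28, 11.47, 7.49, 8.09 and 6.27 FPKM in WT03M and 8.28, 7.76, 7.23, 7.97 and 10.6 FPKM in WT10M. The TG03M libraries had 8.40, 6.81, 8.46, 13.2 and 8.99 FPKM, and in TG10M 10.5, 8.90, 8.82, 9.32 and 11.4 FPKM. The set apart was high in Hspb8, at 10.5 to 11.4 FPKM, below TG03M replicate 4 and about level with WT03M replicate 2. Estimates were 0.16 at 3 months (95% interval -0.15 to 0.48) and 0.22 at 10 months (-0.10 to 0.53), with adjusted p of 0.748 and 0.519 (limma). Ddost, Golm1 and Atp6v0e were most like it (r of 0.94, 0.93 and 0.91).

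Bag3 (ENSMUSG00000030847; chromosome 7, 128523616 to 128546981, plus strand) had 1.32, 2.05, 1.48, 1.28 and 1.34 FPKM in WT03M and 1.61, 1.88, 1.32, 1.35 and 1.12 FPKM in WT10M. In TG03M it had 1.31, 1.502, 1.803, 2.50 and 2.44 FPKM, and in TG10M 1.40, 1.27, 1.91, 1.99 and 1.30 FPKM. TG03M replicates 4 and 5 and WT03M replicate 2 were the highest. The estimates were 0.26 at 3 months (95% interval -0.06 to 0.58) and 0.08 at 10 months (-0.24 to 0.40), with adjusted p of 0.579 and 0.832 (limma), and the added 0.5 FPKM weighs most on this gene. Mamld1, Rmnd5a and Usp31 were most like it (r of 0.95, 0.95 and 0.94).

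Most of the inducible and small heat shock genes were high and low in the same libraries within groups, and Hspb8 followed them less closely. Among Hspa1a, Hspa1b, Hspb1, Hspb8, Dnajb1, Hsph1 and Bag3, Pearson r of the 21 pairs was 0.31 to 0.95 over the 20 libraries after subtracting group means, with a median of 0.80. For the 15 pairs without Hspb8 r was 0.68 to 0.95, and 0.56 to 0.90 with the 2 libraries farthest from the median left out for each pair. For the 6 pairs with Hspb8 r was 0.31 to 0.74, and -0.28 to 0.45 with 2 libraries, WT03M replicate 2 and TG03M replicate 4, left out. For both sets of pairs the group means subtracted still included the libraries left out. The values with 2 libraries left out therefore cannot show how close the likeness is without them. The set apart ranked 3 to 5 in Hspb8 and 18 to 20 in Hsph1. WT03M replicate 2 ranked 1 to 3 of the 20 libraries in all 7 genes, and so did TG03M replicate 4. TG03M replicates 1 and 2, of the same group, ranked 9 to 20. The constitutive genes followed less closely, with r of -0.38 to 0.74 for Hsp90ab1 and -0.38 to 0.80 for Hspa8 with the 8 other members. These points share libraries and their depth, and r is given as a description.

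The summed level of 6 immediate early genes, Fos, Fosb, Egr1, Junb, Arc and Npas4, was highest in 4 libraries that were also high in most of these chaperones. It was 522, 462 and 446 FPKM in TG03M replicates 3, 4 and 5 and 434 FPKM in WT03M replicate 2, and 107 to 400.5 FPKM in the 16 others. No gene of the 6 was at 0 in all libraries, and the lowest of their medians was 4.16 FPKM. Choroid plexus markers summed to 1030 FPKM in TG03M replicate 4 and to 35.8 FPKM in WT03M replicate 2, the libraries highest in the inducible genes, and to 834 FPKM in TG03M replicate 1, where these genes were low. The part of either list in the levels of the chaperones was not tested.

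**Figure D5:**
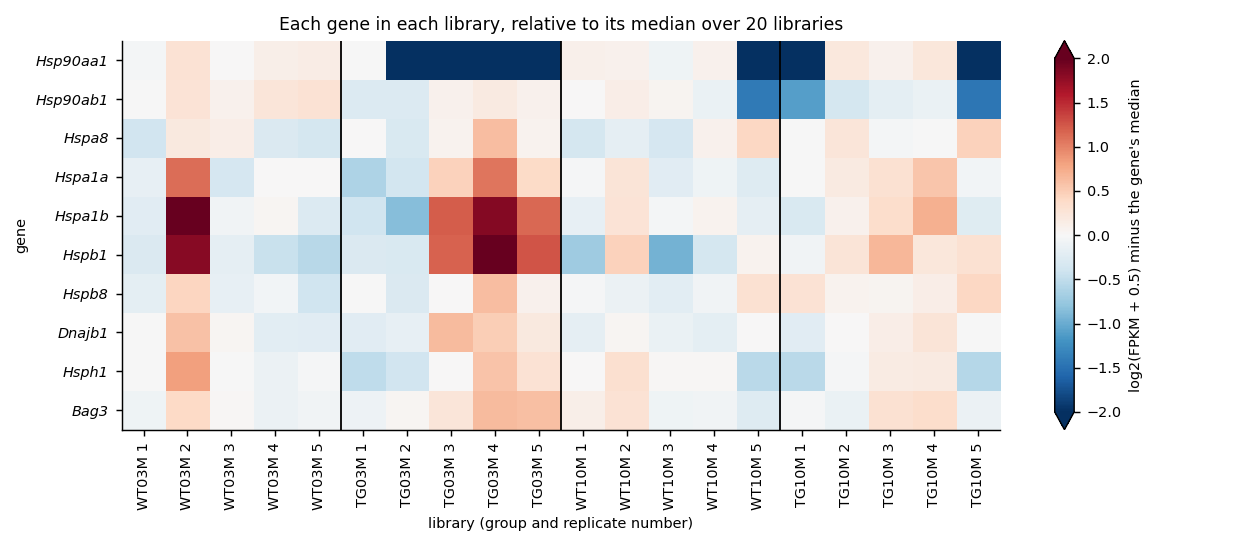
Level of each member in each library as log2(FPKM + 0.5) minus the member's median over the 20 libraries (colour, with values beyond 2 drawn at the end of the scale). Columns are libraries by group and replicate number. WT03M replicate 2 and TG03M replicates 4 and 5 are high in the inducible genes, TG03M replicate 3 is so but for Hsph1 and Hspb8, which are near their medians, and Hsp90aa1 is low in 7 libraries.

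The lists of other chaperone genes held no gene that passed. Of 85 genes in 8 lists, 80 passed the filter on low values, and 0 were called in any of the 4 comparisons or the interaction (limma). At an unadjusted p under 0.05 there were 4 of 80 at 10 months and 5 of 80 at 3 months between genotypes, 4 with age in wild type, 15 with age in the transgenic mice and 4 for the interaction. These are 5% against 14.1% of all genes at 10 months, 6.25% against 10.6% at 3 months, 5% against 6.72% with age in wild type, 18.8% against 16.1% with age in the transgenic mice and 5% against 5.04% for the interaction. Their median difference lay between -0.07 and 0.01 over the 5 contrasts.

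Of the 3 tested heat shock factors, Hsf4 had the smallest p, with 0.20 between TG10M and TG03M (adjusted p = 0.207, limma), from 4.86 ± 0.641 to 5.62 ± 0.311 FPKM (SD, n = 5). Of the 8 other HSP70 and HSP110 genes it was Hspa14, a ribosome-bound HSP70, at -0.12 with age in wild type (adjusted p = 0.561). Of the 13 other J proteins it was Dnaja1, at -0.35 with age in the transgenic mice (adjusted p = 0.258), from 197 ± 31.6 to 155 ± 30.7 FPKM. Of the 9 co-chaperones and exchange factors of HSP70 it was Bag1, at 0.13 in the same comparison (adjusted p = 0.163).

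Of the 5 other small heat shock proteins tested, Cryab, the alpha B crystallin of glia, had the smallest p, with 0.58 between TG03M and WT03M (SE 0.15, adjusted p = 0.139, limma). Its mean was 31.6 ± 6.17 FPKM in WT03M and 48.4 ± 13.5 FPKM in TG03M (SD, n = 5). Without TG03M replicate 1 the difference was 0.71 and passed (adjusted p = 0.0248), in a fit that called 108 of 13722 genes. The summed level of 5 oligodendrocyte markers did not overlap between these groups, at 1243 to 1390 FPKM in WT03M and 1457 to 1774 FPKM in TG03M. Among them Mbp had 0.33 and Mobp 0.23 in this comparison (adjusted p = 0.0516 and 0.373, limma), and Mog had -0.03. Their part in the level of Cryab was not tested. Of the 19 HSP90 co-chaperones, Tomm34, which bridges HSP70 and HSP90, had 0.29 in the same comparison (adjusted p = 0.0878), from 33.8 ± 1.13 to 41.6 ± 4.62 FPKM. Tomm34 passed without TG03M replicate 1 (0.33, adjusted p = 0.0325) and without the set apart (0.29, adjusted p = 0.0111), in fits that called 108 and 473 genes. Of the 13 tested genes of the chaperonin TRiC and prefoldin, which fold actin and tubulin, Cct5 had 0.17 at 10 months (adjusted p = 0.342). It had 0.24 without WT10M replicate 5 (adjusted p = 0.0182), in a fit that called 1600 genes.

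Of the 10 chaperones of the endoplasmic reticulum and mitochondria, Dnajb9 had -0.33 between TG10M and TG03M (adjusted p = 0.218, limma). All 10 had negative estimates with age in wild type, with a median of -0.13, and 0 of them had an unadjusted p under 0.05. In the other lists the negative estimates in this comparison ran from 1 of 3 heat shock factors to 12 of 13 other J proteins. Hspa5 and Hsp90b1 had 375 and 266 FPKM in WT03M replicate 2, against at most 139 and 170 FPKM in the other WT03M libraries. The estimates of these genes without that library are not given here. Cdc37, which brings kinases to HSP90, was added after its values were seen. It had 39.8 ± 0.909 FPKM in WT03M and 31.1 ± 1.72 FPKM in TG03M (SD, n = 5), with ranges of 38.2 to 40.5 and 28.1 to 32.2 FPKM that did not overlap. In this comparison 4.48% of all genes did not overlap between the groups. The difference of Cdc37 at 3 months was -0.35 (adjusted p = 0.565). It passed when only the compared groups were fitted (adjusted p = 0.00342) or without the set apart (adjusted p = 0.000167), in fits that called 221 and 473 of 13722 genes. In the libraries of the set apart Cdc37 reached down to 17.3 FPKM. At 10 months it had -0.34 (adjusted p = 0.457). It passed without the set apart (-0.21, adjusted p = 0.0340) and without WT10M replicate 5 (-0.57, adjusted p = 0.0280), in fits that called 326 and 1600 genes. Ppp5c, a phosphatase that binds HSP90 and was likewise added after its values were seen, had -0.16 at 3 months (adjusted p = 0.125). It passed without the set apart (adjusted p = 0.0257), in the fit that called 473 genes. Without WT10M replicate 5, in the fit that called 1600 genes, Tomm34 (0.24), Dnajc7 (-0.27), Dnajb9 (-0.38) and Pfdn2 (-0.37), chosen because they passed, were also called at 10 months, with adjusted p of 0.0247 to 0.0466.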

How the data were processed

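Total RNA of 20 cortex libraries, selected for a RIN above 7, had been sequenced by the authors, who deposited FPKM per transcript. Named in the submitters' processing notes are CASAVA, TopHat2, Cuffdiff, DESeq2 and build GRCm38 (mm10). The role and version of each tool is not given in the sources used here. FPKM were summed per gene ID. Coordinates are from GENCODE M21 and promoters from RefSeq. Of the deposited gene symbols, 27 had become dates and were restored by gene ID.

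The 13722 genes that averaged 0.5 FPKM or more were fitted on log2(FPKM + 0.5) with limma 3.58.1 in R 4.3.3, with a trend, 4 group means and 16 residual degrees of freedom, two-sided, with Benjamini-Hochberg adjustment at 0.05 over all genes tested. Hsp90aa1 was also tested with exact permutation tests (scipy 1.17.1), adjusted over 4 comparisons. The fit was tested on simulated data. Values after ± are SDs over libraries. FPKM hold no counts, and depth was estimated from the steps between low values in 1815 genes with 1 transcript of over 4000 bases. The check used only the lowest values, 42 to 64 per library. Of these 80.0 to 96.2% per library lay within 0.1 of a whole multiple, in part by construction.

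The members and lists were chosen with earlier results of these data known. The text names all 10 members, the called genes of each list or else its gene with the smallest p over the 4 comparisons, for each member but Hsp90aa1 the 3 genes with the highest Pearson r, and for Hsp90aa1 the genes with the widest gap between its low and high libraries. Alternatives were pseudocounts of 0.1 and 1, a mean FPKM of at least 1 or no filter, median centring, quantile normalization, a replicate block, a fit of the compared groups alone, leaving out the set apart or each library in turn, and transcripts as features.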

Additional observations from a re-analysis of the deposited data

Results flagged for a closer look

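In 9 of the 40 combinations of member and group, 1 library stood away from the 4 others of its group beyond Dixon's 95% critical value of 0.71, a rule that chance meets in about 1 of 20 groups. These combinations are not independent, because 8 of the 9 fall in 2 libraries. In WT03M replicate 2 the highest value of the group was flagged for 6 inducible members, Hspa1a (8.63 FPKM, next 3.74), Hspa1b (22.8, next 4.88), Hspb1 (28.1, next 6.65), Dnajb1 (51.5, next 35.4), Hsph1 (123, next 69.3) and Bag3 (2.05, next 1.48). In WT10M replicate 5 the lowest value was flagged for the HSP90 genes, Hsp90aa1 (16.6 FPKM, next 532) and Hsp90ab1 (188, next 458). In TG03M replicate 1 the highest value of Hsp90aa1 was flagged, 560.3 FPKM against 20.5 FPKM in the next library. The interaction of genotype and age called 0 members.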

How the results depend on the processing

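The counts of members called were 0 under every alternative but these. Between TG03M and WT03M 1 member, Hsp90aa1, was called with the compared groups alone, without the set apart and without TG03M replicate 1 (0 to 1 over the omissions of 1 library), and between TG10M and TG03M 1, Hsp90aa1, without the set apart. Between TG10M and WT10M 1, Hsp90ab1, was called without WT10M replicate 5 (0 to 1 over the omissions), as were 6 genes of the lists. The labels do not say that the replicate numbers pair the libraries. Deviations of same-numbered libraries correlated from -0.42 to 0.66, and no pair of groups had all 5 over 0.1. Between WT10M and TG10M 3 of the 5 were over 0.1. Such correlations cannot show whether same-numbered libraries shared a litter or a day. With the replicate number as a block, 0 members were called in each comparison and in the interaction, and the smallest adjusted p of a member was 0.202. Over all genes, the calls moved from 87 to between 16 and 1600 for the genotypes at 10 months, from 41 to between 11 and 473 at 3 months, from 9 to between 1 and 11 for age in wild type and from 116 to between 52 and 154 for age in transgenic mice. The highest counts of the first and the second came without WT10M replicate 5 and without the set apart.

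Estimates of members that missed the threshold also changed sign, and the cause was not tested. Without the set apart this was so for the genotypes at 10 months Hsp90aa1 0.13, Hsph1 0.010; for age in wild type Hspa8 -0.059, Hspb8 -0.027, Bag3 0.035; for age in transgenic mice Hspa8 -0.032, Hsph1 0.11; for the interaction Hspa8 0.027, Hspa1b 0.078, Hspb1 0.060, Dnajb1 0.10. The mean difference of the exact permutation test of Hsp90aa1 at 10 months was then 0.13. With a pseudocount of 1 Hspa1a had -0.0010, and with quantile normalization Hspa8 had -0.0044, for age in transgenic mice. Of 88 transcript estimates 15 had the other sign than the gene, for the genotypes at 10 months Hsph1-209 0.39, Hsp90aa1-203 0.065, Hspa8-205 -0.36, Hsph1-203 0.27, Hspa8-203 -0.012, Hsph1-205 0.11, Hsp90ab1-202 0.14; for the genotypes at 3 months Hsph1-209 0.14, Hspa8-202 -0.60, Hsp90ab1-202 0.28; for age in wild type Hspa8-202 -0.30; for age in transgenic mice Hsph1-209 0.16, Hspa8-205 -0.0090, Hsph1-203 0.89, Hspa8-203 -0.16. Leaving out 1 library gave another sign in 58 of 600 estimates, with these ranges, for the genotypes at 10 months Hspa1b -0.019 to 0.24; for the genotypes at 3 months Hspa1a -0.16 to 0.31, Hspa1b -0.042 to 0.73, Hsph1 -0.28 to 0.035; for age in wild type Hspa8 -0.059 to 0.15, Hspa1a -0.30 to 0.057, Hspa1b -0.48 to 0.13, Hspb1 -0.55 to 0.074, Hspb8 -0.027 to 0.18, Dnajb1 -0.19 to 0.0071, Hsph1 -0.25 to 0.0070, Bag3 -0.10 to 0.063; for age in transgenic mice Hspa8 -0.067 to 0.16, Hspa1a -0.19 to 0.23; for the interaction Hsp90ab1 -0.44 to 0.044, Hspa8 -0.13 to 0.10, Hspa1a -0.048 to 0.42, Hspa1b -0.60 to 0.17, Hspb1 -0.58 to 0.17, Hspb8 -0.070 to 0.19, Dnajb1 -0.16 to 0.088, Hsph1 -0.16 to 0.15. FPKM without counts give no counting interval, and the 5 libraries per group limit the precision.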
